A study of Homo sapiens with 6 samples.

Results

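In RNA sequencing of RKO cells, a human colorectal cancer cell line, 533 of the 61204 entries measured in every sample carried a serial identifier (Novel00001 to Novel00533) in place of an Ensembl identifier and had neither a gene symbol nor a description. These 533 unannotated regions are described here, chosen by that identifier alone. Their entries hold an identifier and an expression value, so their positions, strands and sequences were not analysed here. RKO cells were transfected with 100 pmol of a negative control siRNA (siCtrl, labelled ANP32B wild type, 3 samples) or with 100 pmol of siRNA against ANP32B (siANP32B, labelled ANP32B knockdown, 3 samples). Both groups are the same cell line, and which of the siANP32B sequences was used in these samples was not given in the sources used here. Neither the labels nor the methods say that the 3 samples of a group were separate cultures, so the p-values cover the variation among these 6 samples alone, which could be technical.

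An RNA-seq read is usually assigned to a gene of a reference annotation, and transcribed regions outside it can be listed only when transcripts are also assembled from the reads themselves. Such regions are known from other work to include long noncoding RNAs, unlisted exons or extended ends of known genes, transcripts from repeats and enhancers, and RNA from unspliced introns. Which of these any region here is was not tested. ANP32B is an acidic leucine-rich nuclear phosphoprotein that binds histones, and the comparison asks how RNA levels differed when it was depleted. In bulk RNA, fewer cells with a transcript and less of it per cell cannot be told apart.

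ANP32B itself (ENSG00000136938) was measured at 429, 466 and 452 FPKM in siCtrl and at 72.5, 53.9 and 75.3 FPKM in siANP32B, where FPKM is fragments per kilobase of length, scaled to the fragment total of the sample. It fell to 15.0% of the control mean (log2 fold change -2.74, standard error (SE) 0.11, limma adjusted p = 9.37e-07). The values rested on 14304093 to 18987041 fragments per siCtrl sample and 14577044 to 16393123 per siANP32B sample. Of 7 colorectal epithelial markers, EPCAM, KRT8, KRT18 and CDX2 reached 1 FPKM while CDH1, KRT20 and VIL1 stayed near 0, and the list summed to 77.8 to 86.0 FPKM in siCtrl and 81.3 to 85.2 FPKM in siANP32B. The leukocyte list (1 of 3 members reaching 1 FPKM, PTPRC and CD3E at 0) summed to 0 to 0.341 FPKM in siCtrl and 0.499 to 1.17 FPKM in siANP32B. The fibroblast list (1 of 4, COL3A1 and DCN at 0) summed to 3.08 to 4.27 and 1.12 to 2.27 FPKM, and the endothelial list (0 of 3) to 0.672 to 1.02 and 0.284 to 0.470 FPKM. The epithelial sums overlapped between the groups and the other 3 did not, and their part in the results was not tested.

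Most of the regions were detected, at low levels. A value above 0 was found for 507 of the 533 regions in at least 1 sample and for 455 (85.4%) in all 6 samples. Another 26 regions were at 0 in every sample, where a count of 0 allows up to 3 fragments per library, for counting error only. Between these extremes, 30 regions were detected in 5 samples, 9 in 4, 8 in 3, 3 in 2 and 2 in 1.

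Detection per sample was 495, 492 and 483 regions in siCtrl and 496, 491 and 491 regions in siANP32B. The difference of 2.67 regions between the group means was smaller than the SD of 6.24 regions in siCtrl (exact two-sided permutation test, p = 0.8, where 3 samples against 3 cannot go below 0.1). At a level of at least 1 FPKM, 229, 211 and 214 regions were found in siCtrl and 227, 224 and 228 in siANP32B (difference 8.33 regions, exact two-sided permutation test, p = 0.4). The groups overlapped in both counts, and siCtrl 1, the deepest library, had the highest count at 1 FPKM.

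The mean level over the 6 samples had a median of 0.813 FPKM over the 533 regions, with quartiles of 0.443 and 1.54 FPKM and a highest value of 315 FPKM. Beside the 26 regions at 0, 23 lay above 0 and at or under 0.1 FPKM, 103 between 0.1 and 0.5 FPKM, 165 between 0.5 and 1 FPKM, 114 between 1 and 2 FPKM, 71 between 2 and 5 FPKM, 19 between 5 and 10 FPKM and 12 above 10 FPKM. A mean of at least 1 FPKM was the level set for the comparison of the groups, and 216 regions (40.5%) had it. Just under it lay Novel00233 and Novel00232, with means of 0.995 and 0.988 FPKM, and just above it Novel00131 and Novel00372, with means of 1.01 and 1.02 FPKM.

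Beside annotated classes of GENCODE 29, the unannotated regions were more often above 0 in every sample than noncoding genes, while the levels of those that reached 1 FPKM were similar to theirs, both given as a description with no test. Of 7519 long intergenic noncoding RNA (lincRNA) genes, 12.4% were above 0 in all 6 samples and 5.49% reached a mean of 1 FPKM. The figures were 24.4% and 11.6% for 5554 antisense genes and 62.8% and 55.6% for 19903 protein-coding genes. Among entries that did reach 1 FPKM, the median level was 1.92 FPKM for the unannotated regions, 2.58 FPKM for lincRNA, 2.03 FPKM for antisense genes and 23.0 FPKM for protein-coding genes. An annotation lists genes that are silent in a given cell, whereas the sources used here do not say how these regions entered the table, so the shares detected cannot be read as a difference in expression.

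**Figure D1:**
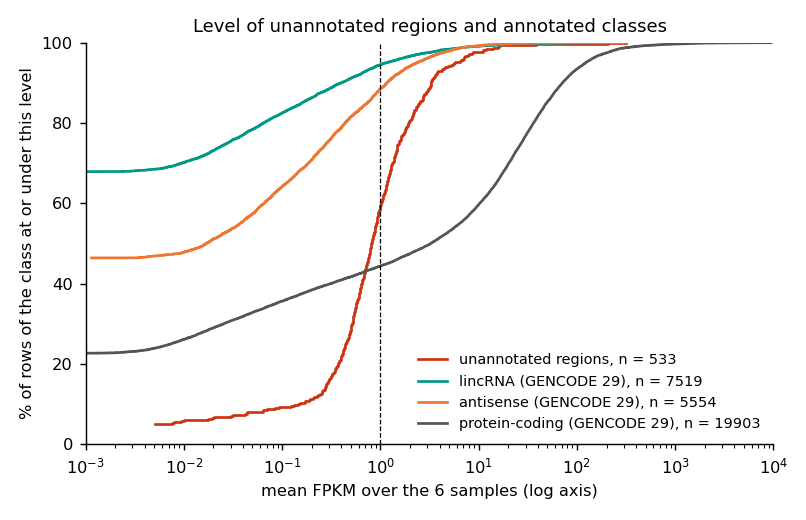
Cumulative share of entries (%, y axis) at or under a mean level over the 6 samples (FPKM, log x axis) for 533 unannotated regions and 3 annotated classes, with a dashed line at 1 FPKM. The curve of the unannotated regions is steep between 0.1 and 5 FPKM, while 26 of them, which start the curve, were at 0.

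Summed over all 533 regions, the level was 1338, 1316 and 1310 FPKM in siCtrl and 1336, 1363 and 1405 FPKM in siANP32B. The means were 1321 ± 14.5 and 1368 ± 34.9 FPKM (SD, n = 3 each), and the groups overlapped (difference 46.5 FPKM, exact two-sided permutation test, p = 0.2). With median-of-ratios scaling the sums no longer overlapped, at 1267 to 1296 FPKM in siCtrl and 1360 to 1421 FPKM in siANP32B (difference 112 FPKM, p = 0.1 by the same exact test, the lowest it can give). This sum was dominated by few members, as the 5 highest regions held 41.2 to 43.8% of it in siCtrl and 43.4 to 47.3% in siANP32B. Without them the difference changed sign, with 756 ± 26.8 FPKM in siCtrl and 744 ± 11.2 FPKM in siANP32B (SD, n = 3 each; exact two-sided permutation test, p = 0.6). As a share of all fragments the regions took 0.307%, 0.295% and 0.299% in siCtrl and 0.298%, 0.297% and 0.307% in siANP32B. With 42156 to 58259 fragments behind each share, the exact 95% binomial intervals ran from 0.292 to 0.309% over the siCtrl samples and from 0.294 to 0.310% over the siANP32B samples. These intervals cover counting error only. The group mean was 0.300% in both groups (exact two-sided permutation test, p = 1).

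The FPKM values also gave a smallest length for each region above 0. Each value is a whole number of fragments divided by a length and a sample total. For all 507 regions above 0, a whole length turned every value into whole fragments within 0.002. The smallest such lengths ran from 164 to 13635 bases, with a median of 1762 bases and quartiles of 1083 and 3103 bases. In regions with few fragments a length that is too short can meet the limit of 0.002, so their lengths are lower limits. The lowest, 164 bases, rested on 3 fragments of Novel00083 in 1 sample. Regions that reached 1 FPKM had a median length of 1760.5 bases, against 1762 bases for the 291 detected regions that did not. On these lengths no trend with level was visible, and both ends of the length range held regions under and over 1 FPKM.

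**Figure D2:**
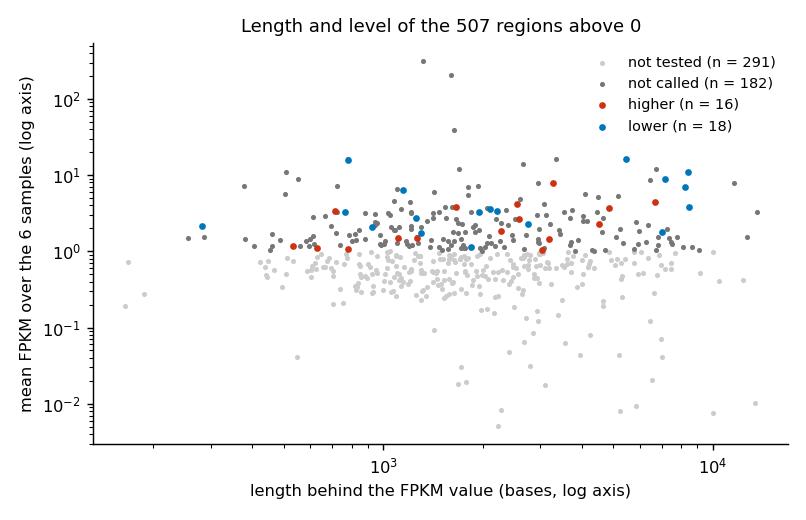
Mean level over the 6 samples (FPKM, log y axis) against the length behind the FPKM value (bases, log x axis) for the 507 regions above 0, one point each, coloured by the result of the comparison. The 2 points above 100 FPKM are Novel00490 and Novel00481.

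A pair of regions exceeded all others in level. Novel00490, of 1317 bases, was at 286, 294 and 305 FPKM in siCtrl and at 296, 352 and 357 FPKM in siANP32B, on 5542 to 7360 fragments per sample. siANP32B 1 lay within the siCtrl values and the other siANP32B samples lay above them. The log2 fold change was 0.18 (SE 0.07, limma adjusted p = 0.0653), which missed the threshold of 0.05. It passed with median-of-ratios scaling (limma adjusted p = 0.0212), with limma-voom on the fragments (adjusted p = 0.00922) and without siANP32B 1 (limma adjusted p = 0.00268). It did not pass without siANP32B 2 (limma adjusted p = 0.188) or siANP32B 3 (0.199), or without a level filter (0.206). With each siCtrl sample left out in turn, the limma adjusted p ran from 0.0856 to 0.162.

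Novel00481, of 1601 bases, was at 197, 200 and 200 FPKM in siCtrl and at 211, 206 and 233 FPKM in siANP32B. All siANP32B samples lay above all siCtrl samples by a small margin. Its log2 fold change of 0.12 (SE 0.05, limma adjusted p = 0.0796) also missed the threshold, and passed it with median-of-ratios scaling (limma adjusted p = 0.0145) and with limma-voom (adjusted p = 0.0371). With each sample left out in turn it did not pass, at limma adjusted p from 0.0510 to 0.230.

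The next regions in level were far lower, and their groups overlapped. Novel00376, of 1640 bases, was at 38.1, 40.5 and 40.4 FPKM in siCtrl and at 40.0, 36.7 and 37.0 FPKM in siANP32B (log2 fold change -0.06, limma adjusted p = 0.404). Novel00153, of 780 bases, was at 13.2, 17.8 and 13.4 FPKM in siCtrl and at 16.3, 17.7 and 19.96 FPKM in siANP32B (log2 fold change 0.27, limma adjusted p = 0.104). Its siCtrl 2 value lay among the siANP32B values, and without that library the limma adjusted p was 0.0142. With any other library left out, the limma adjusted p ran from 0.0845 to 0.279. Novel00378, of 3351 bases, was at 16.2, 17.0 and 15.3 FPKM in siCtrl and at 16.1, 16.2 and 17.3 FPKM in siANP32B (log2 fold change 0.03, limma adjusted p = 0.744).

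After ANP32B knockdown, 16 of the 216 compared regions were higher and 18 were lower, and 182 did not pass the test. Levels were compared with limma on log2(FPKM + 1) for every entry of the table that reached the level of 1 FPKM on average. A region was called at a Benjamini-Hochberg adjusted p under 0.05 over all 13945 of them. The 34 calls are 15.7% of the regions, beside 39.2% of all entries compared. Higher calls made up 14.6% of all entries and lower calls 24.6%. At an unadjusted p under 0.05, 49 regions passed, a count for which no share over all entries is given here. With median-of-ratios scaling 20 regions were higher and 15 lower, so that higher regions were 57.1% of the calls in place of 47.1%. Of all entries, 37.6% were called with this scaling. The count was 21 without siANP32B 2 and 22 without siCtrl 1, and with siCtrl 1 as the only control it was 17, while the share called of all entries was 32.3%, 32.3% and 22.3%. The median log2 fold change over the 216 regions was -0.02, and over all entries -0.06. With median-of-ratios scaling these medians were 0.02 and 0.001, with factors of 1.016 to 1.045 in siCtrl and 0.976 to 0.988 in siANP32B.

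The values of the 2 groups did not overlap in 76 of the 216 regions (35.2%), of which 34 were higher and 42 lower in siANP32B, beside 51.1% of all entries. All 34 called regions were among them. The other 42 regions with separate groups missed the adjusted threshold, with log2 fold changes from -0.56 to 0.44.

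**Figure D3:**
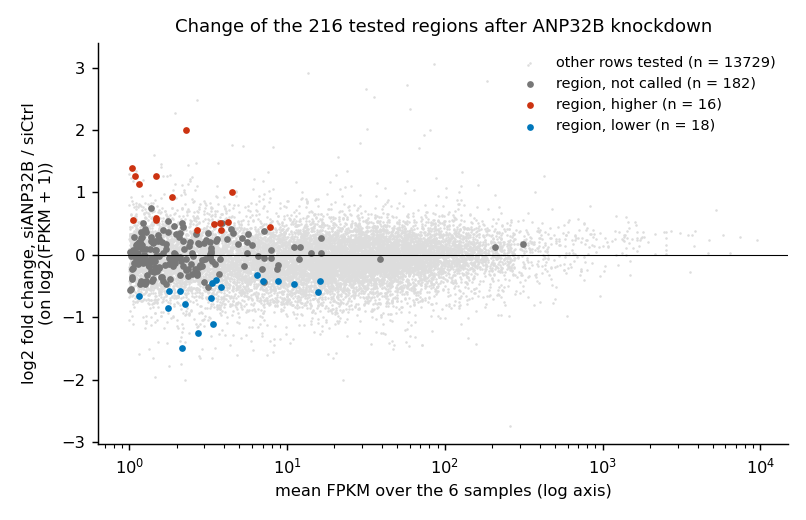
Log2 fold change of siANP32B against siCtrl on log2(FPKM + 1) (y axis) against the mean level over the 6 samples (FPKM, log x axis), for the 216 compared regions and, in pale grey, the other entries compared. The 16 higher and 18 lower regions are coloured, and none at 5 FPKM or more had an absolute log2 fold change of 1 or more.

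Over all entries, a larger share was called where more fragments were counted, and the regions are set beside them in the same ranges. Among regions with a mean of at most 30 fragments per sample, 6 of 45 were called (13.3%), beside 9.49% of all entries in that range. From 30 to 100 fragments 10 of 95 were called (10.5%, all entries 16.3%), and from 100 to 300 fragments 11 of 54 (20.4%, all entries 32.8%). Above 300 fragments 7 of 22 were called (31.8%, exact 95% binomial interval 13.9 to 54.9%), beside 52.3% of all entries. The interval over regions covers counting error only, and regions are not replicates of the condition. The standard error of the log2 fold change had a median of 0.18 over the compared regions, 0.18 over lincRNA, 0.20 over antisense genes and 0.08 over protein-coding genes, whose median was 647 fragments per sample against 64 for the regions.

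**Figure D4:**
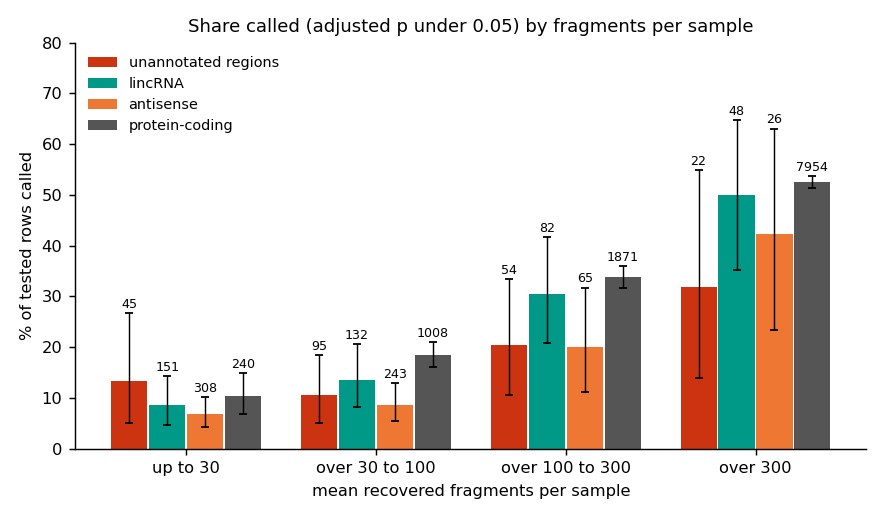
Share of compared entries called at an adjusted p under 0.05 (%, y axis) by the mean number of recovered fragments per sample (x axis), for the unannotated regions and 3 annotated classes. Bars start at 0, error bars are exact 95% binomial intervals and the number above each bar is the number of entries; the bars of the unannotated regions are 13.3, 10.5, 20.4 and 31.8%.

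Calls of at least 2-fold on the fitted scale were made for 9 regions (4.17%), 6 higher and 3 lower, beside 1.43% of all entries. The level filter bears on this share. A region can pass it through the group in which it is high, and 37 of the 216 had a mean below 1 FPKM in 1 group. Those 37 held 6 of the 9 regions of at least 2-fold (16.2% of the 37, beside 7.76% of all 593 entries of that kind). They also held 12 of the 34 calls (32.4%, beside 22.3%). Of these 12, 9 were higher and 3 lower, beside 46 higher and 86 lower among the 593 entries. Where both group means were at least 1 FPKM, 22 of 179 regions were called (12.3%, 7 higher and 15 lower). Of all entries of that kind 40.0% were called (1985 higher and 3351 lower). At least 2-fold changes were called in 3 of the 179 (1.68%), beside 1.15%.

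The largest rise was that of Novel00037, of 4534 bases, which was nearly silent in the control cells. It was at 0.302, 0.185 and 0.479 FPKM in siCtrl and at 3.78, 4.47 and 4.58 FPKM in siANP32B. Those values stand for 26, 12 and 33 fragments in siCtrl and 281, 322 and 303 in siANP32B. Every siANP32B sample lay far above every siCtrl sample, and the group mean was 13.3-fold higher. The log2 fold change on log2(FPKM + 1) was 2.0 (SE 0.17, limma adjusted p = 4.05e-05), and 3.78 by limma-voom on the fragments, which adds no 1 FPKM.

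Novel00278, of 3034 bases, was likewise near 0 in siCtrl, at 0.156, 0.0691 and 0.130 FPKM, and at 1.69, 2.47 and 1.70 FPKM in siANP32B. The fragments were 9, 3 and 6 against 84, 119 and 75. Its groups were far apart and its mean was 16.5-fold higher (log2 fold change 1.39, SE 0.21, limma adjusted p = 0.000823, and 3.94 by limma-voom).

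Novel00236, of 6697 bases, was the only one of the 6 largest rises above 1 FPKM in the control samples. It was at 2.95, 2.60 and 2.31 FPKM in siCtrl and at 6.54, 6.89 and 5.46 FPKM in siANP32B, on 235 to 734 fragments per sample. The lowest siANP32B sample lay well above the highest siCtrl sample, and the mean was 2.40-fold higher (log2 fold change 1.01, SE 0.13, limma adjusted p = 0.000392).

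Smaller numbers of fragments stood behind the other large rises. Novel00245, of 1267 bases, was at 0.125, 0.772 and 0.519 FPKM in siCtrl and at 2.94, 2.09 and 2.44 FPKM in siANP32B (3, 14 and 10 against 61, 42 and 45 fragments). Its siCtrl values were spread over a 6.19-fold range yet all lay below the siANP32B values (log2 fold change 1.26, SE 0.22, limma adjusted p = 0.00202, and 2.74 by limma-voom). Novel00195, of 533 bases, was at 0.198, 0.262 and 0.617 FPKM in siCtrl and at 1.83, 2.24 and 1.80 FPKM in siANP32B (2, 2 and 5 against 16, 19 and 14 fragments). Every siANP32B sample was again higher (log2 fold change 1.13, SE 0.21, limma adjusted p = 0.00242, and 2.43 by limma-voom).

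Novel00332, of 627 bases, was at 0.336, 0.223 and 0 FPKM in siCtrl and at 0.681, 2.81 and 2.52 FPKM in siANP32B, with 4, 2 and 0 against 7, 28 and 23 fragments. siANP32B 1 was only a little above the highest siCtrl sample and far below the other siANP32B samples. Its log2 fold change was 1.26 (SE 0.32, limma adjusted p = 0.0136, and 3.24 by limma-voom). The call was lost without siANP32B 2 (limma adjusted p = 0.0558), without siANP32B 3 (limma adjusted p = 0.0526), without a level filter (limma adjusted p = 0.0527) and with siCtrl 1 as the only control (limma adjusted p = 0.159).

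The other 10 higher regions changed less, with log2 fold changes from 0.40 to 0.92, mean levels from 1.06 to 7.81 FPKM and adjusted p from 0.00572 to 0.0484 in limma. At the upper end, Novel00184 was at 1.04, 0.583 and 1.36 FPKM in siCtrl and at 2.33, 2.79 and 3.10 FPKM in siANP32B, with all siANP32B samples higher. It stood in every alternative that compared it, and is named here because of that, after its values were seen.

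Among the lower regions, Novel00346 and Novel00296 had the clearest separation of the groups. Novel00346, of 2213 bases, was at 5.07, 4.33 and 5.56 FPKM in siCtrl and at 1.93, 1.71 and 1.67 FPKM in siANP32B, on 137 to 213 against 54 to 70 fragments. Its mean was 2.82-fold lower in siANP32B (log2 fold change -1.11, SE 0.14, limma adjusted p = 0.000303). Novel00296, of 1254 bases, was at 5.08, 4.24 and 3.41 FPKM in siCtrl and at 1.12, 1.05 and 1.37 FPKM in siANP32B, a 3.60-fold lower mean (log2 fold change -1.26, SE 0.17, limma adjusted p = 0.000426). In both, every siANP32B sample was well below every siCtrl sample.

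The most negative fitted value belonged to Novel00159, a short region of 282 bases with few fragments. It was at 3.74, 2.23 and 4.67 FPKM in siCtrl and at 2.16, 0.223 and 0 FPKM in siANP32B, which stand for 20, 9 and 20 against 10, 1 and 0 fragments. The highest siANP32B value lay just under the lowest siCtrl value, and the siANP32B samples differed widely. The log2 fold change was -1.50 (SE 0.41, limma adjusted p = 0.0172, and -2.93 by limma-voom). This call was lost without siCtrl 1 (limma adjusted p = 0.0511), siCtrl 3 (0.0622), siANP32B 2 (0.0555) or siANP32B 3 (0.0554), without a level filter (0.0892) and with siCtrl 1 as the only control (0.116).

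Novel00094, of 1304 bases, was at 3.19, 2.52 and 1.92 FPKM in siCtrl and at 0.748, 0.916 and 1.21 FPKM in siANP32B, with no overlap and a 2.65-fold lower mean (log2 fold change -0.85, SE 0.20, limma adjusted p = 0.00832, and -1.42 by limma-voom). Novel00362, of 2756 bases, was at 3.55, 3.58 and 2.29 FPKM in siCtrl and at 1.15, 1.10 and 1.94 FPKM in siANP32B. Here siCtrl 3 and siANP32B 3 came close to each other (log2 fold change -0.79, SE 0.20, limma adjusted p = 0.0140, and -1.21 by limma-voom), and the call was lost without siCtrl 1 (limma adjusted p = 0.0532) or siCtrl 2 (0.0516), without a level filter (0.0705) and with siCtrl 1 as the only control (0.0603). Novel00012, of 1946 bases, was at 4.06, 4.42 and 4.40 FPKM in siCtrl and at 2.66, 1.75 and 2.54 FPKM in siANP32B (log2 fold change -0.69, SE 0.15, limma adjusted p = 0.00643). Its groups were apart in all samples, and with siCtrl 1 as the only control the limma adjusted p was 0.121.

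**Figure D5:**
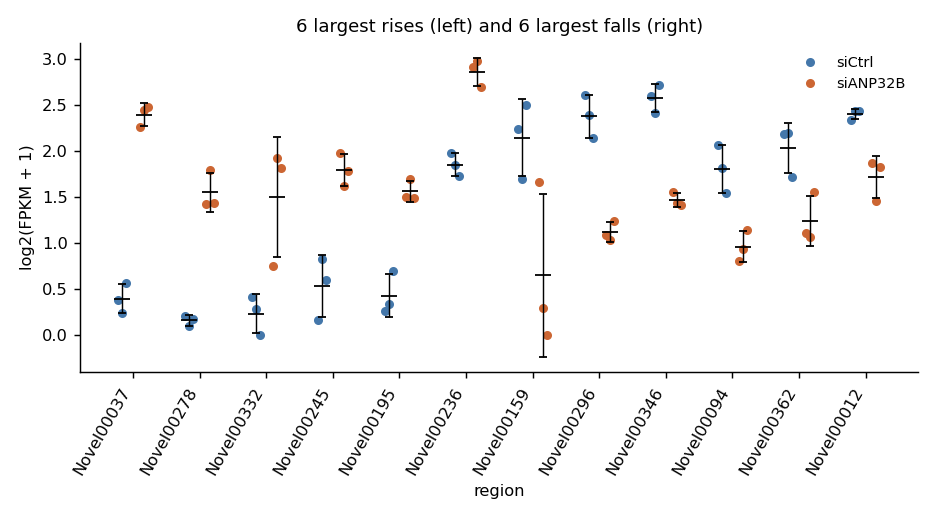
Level on log2(FPKM + 1) (y axis) of the 6 regions with the largest rises (left) and the 6 with the largest falls (right), one point per sample, with the mean and SD of each group (n = 3). The siCtrl points of 5 of the 6 rises lie under 1, and Novel00332 and Novel00159 have the widest spread in siANP32B.

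The other 12 lower regions had log2 fold changes from -0.65 to -0.32, mean levels from 1.15 to 16.3 FPKM and adjusted p from 0.00261 to 0.0483 in limma. They include the higher-level calls, named here after their values were seen because they stood in every alternative. Novel00452, of 5468 bases, was at 19.9, 17.7 and 18.5 FPKM in siCtrl and at 13.5, 13.2 and 14.8 FPKM in siANP32B. Novel00392, of 778 bases, was at 18.3, 22.4 and 16.6 FPKM in siCtrl and at 11.2, 12.3 and 13.2 FPKM in siANP32B. Every siANP32B sample was below every siCtrl sample in both. Novel00344, of 8398 bases, was at 13.7, 11.7 and 13.7 FPKM in siCtrl and at 9.25, 8.98 and 9.26 FPKM in siANP32B. Novel00229, of 7165 bases, was at 11.3, 9.24 and 10.2 FPKM in siCtrl and at 7.53, 7.17 and 7.41 FPKM in siANP32B. The groups were apart in these as well, with siANP32B samples close to one another. Of the 12 regions above 10 FPKM, Novel00452, Novel00392 and Novel00344 were lower and the other 9 did not pass the test, with log2 fold changes from -0.07 to 0.27. The share called of all entries above 10 FPKM is not given here, and at 5 FPKM or more it was 49.1%.

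Over all 34 called regions, 13 (6 higher and 7 lower) stayed called in every alternative that compared them, and none changed sign in any. The same share over all entries is not given here, so this count has nothing to be set against. The 6 higher were Novel00037, Novel00184, Novel00195, Novel00236, Novel00245 and Novel00278, and the 7 lower were Novel00094, Novel00229, Novel00296, Novel00344, Novel00346, Novel00392 and Novel00452. All of the 6 higher except Novel00236 had a siCtrl mean under 1 FPKM, so they passed the level filter through siANP32B. Among the 7 lower, Novel00094 had a siANP32B mean of 0.958 FPKM and passed the filter through siCtrl, with a mean of 2.54 FPKM. Novel00094, Novel00184, Novel00195, Novel00245 and Novel00278 were not compared at a mean of at least 2 FPKM.

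By length, the regions above 5000 bases held 1 higher and 6 lower calls among 33 compared, or 3.03% and 18.2%, beside 5.70% and 27.1% of 351 entries of that length. Regions of 2000 to 5000 bases held 8 higher and 3 lower calls among 61, or 13.1% and 4.92%, beside 12.9% and 29.2% of all entries of that length. Regions of 1000 to 2000 bases held 3 and 5 among 74, or 4.05% and 6.76%, beside 15.7% and 27.2% of all entries of that length. Those up to 1000 bases held 4 and 4 among 48, or 8.33% each, beside 15.2% and 14.6%. The median length was 2411.5 bases for the higher and 2025.5 bases for the lower regions, with a lower call as long as 8452 bases and a higher one up to 6697 bases. These counts are a description and were not tested.

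Among regions with a mean from 1 to 5 FPKM, 27 of 185 were called (14.6%), close to the 13.9% of all 3915 entries at that level. The direction differed, with 15 higher and 12 lower regions beside 152 higher and 392 lower among all entries at that level. At 5 FPKM or more, 7 of 31 were called (22.6%, 1 higher and 6 lower), beside 49.1% of all entries at that level (1879 higher and 3045 lower). Among annotated noncoding classes, 19.4% of 413 compared lincRNA genes (37 higher, 43 lower) and 10.3% of 642 antisense genes (22 higher, 44 lower) were called, and the regions lay between them. Protein-coding genes were called in 45.4% of 11073.

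Detection in all samples of 1 group and in none of the other was found for 2 regions, both at a few fragments. Novel00454, of at least 5248 bases, was at 0 in all siCtrl samples. In siANP32B it was at 0.0232, 0.0120 and 0.0131 FPKM, which stand for 2, 1 and 1 fragments. Novel00369, of at least 10065 bases, was at 0.00523, 0.0139 and 0.0261 FPKM in siCtrl, or 1, 2 and 4 fragments. It was at 0 in all siANP32B samples. Both lay under the level filter and were not tested. A count of 0 allows up to 3 fragments per library, which only siCtrl 3 of Novel00369 exceeded, so no difference is read from these counts.

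In Novel00282 and Novel00007 the siCtrl samples spanned a wider range than the difference between the group means. Novel00282, of 404 bases, was at 1.56, 0 and 1.63 FPKM in siCtrl and at 0.755, 2.18 and 0.849 FPKM in siANP32B, on 12, 0 and 10 against 5, 14 and 5 fragments (log2 fold change 0.20, limma adjusted p = 0.722). Novel00007, of 582 bases, was at 0.0905, 1.92 and 0.565 FPKM in siCtrl and at 1.47, 2.59 and 1.65 FPKM in siANP32B, a 21.2-fold range within siCtrl. siCtrl 2 overlapped the siANP32B samples in it while siCtrl 1 and 3 lay below them (log2 fold change 0.75, SE 0.34, limma adjusted p = 0.117). Without siCtrl 2 its limma adjusted p was 0.0148, and with limma-voom it was 0.0216. With any other sample left out, the limma adjusted p ran from 0.139 to 0.333. With siCtrl 1 as the only control its log2 fold change was 1.39. Novel00332, described above, was the other of the 3 regions with the widest siCtrl ratio, but only because 1 of its siCtrl samples was at 0. Its siCtrl values, at most 0.336 FPKM, all lay below its siANP32B values, at least 0.681 FPKM, and it was called higher.

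Over all entries compared, 123 had both siCtrl 2 and siCtrl 3 below 0.5 times siCtrl 1 and 109 had both above 2 times it, and 7 unannotated regions were among these. Lower in siCtrl 2 and 3 were Novel00122 (1.67, 0.4999 and 0.740 FPKM in siCtrl 1, 2 and 3), Novel00204 (2.27, 0.822 and 1.03 FPKM), Novel00331 (1.71, 0.0947 and 0.803 FPKM) and Novel00359 (1.89, 0.629 and 0.474 FPKM). Higher in them were Novel00007, Novel00245 and Novel00217 (0.320, 1.06 and 1.47 FPKM). Of the 7, only Novel00245 was called, and its log2 fold change with siCtrl 1 as the only control was 1.62 (limma adjusted p = 0.00833).

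At the other end, the fitted difference was closest to 0 in Novel00339, Novel00230 and Novel00126, all near 1 FPKM with overlapping groups. Novel00339 was at 1.45, 1.36 and 0.855 FPKM in siCtrl and at 1.98, 0.715 and 1.11 FPKM in siANP32B. Its 95% interval of the log2 fold change ran from -0.55 to 0.56. Novel00230 was at 1.19, 0.912 and 1.25 FPKM in siCtrl and at 1.09, 1.46 and 0.783 FPKM in siANP32B, with an interval from -0.47 to 0.45. Novel00126 was at 1.10, 0.958 and 1.28 FPKM in siCtrl and at 1.10, 0.816 and 1.53 FPKM in siANP32B, with an interval from -0.44 to 0.47. Changes within these intervals were not detectable in such regions at this depth.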

How the data were processed

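The authors deposited 1 FPKM value per entry and sample. The submitters' processing notes list GRCh38 and, without versions or roles, the authors' tools RSEM, Bowtie2 and DESeq2. The sources used here do not give the annotation release, the assembly of the unannotated regions, the definition of length or the use of strand. Overlapping or antisense genes may therefore share reads with a region. The labels name an RNA kit of Tiangen and a library kit of MGI, the methods TRIzol and an Illumina platform.

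Fragment totals were recovered from the steps of the deposited FPKM values: the values of 17959 of the 17961 entries detected in every sample were whole fragments to within 0.002. Sample totals were set with GENCODE 29 exon-union lengths, as the total that the most genes gave (1201 to 1343 genes per sample). The length of a region is the smallest, between 20 and 60000 bases, at which its values are whole fragments to within 0.002. Fragments are therefore the smallest the values allow. With few fragments a length that is too short can pass this limit, so lengths of sparsely counted regions are lower limits. As a check, this length matched GENCODE 29 in 3306 of 4101 genes with 1 transcript (80.6%). Lengths of the same annotation set the sample totals, so the check is not independent of them. In genes with several transcripts the mean transcript length matched within 1 base in 27.8% and the exon union in 0.12%.

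limma 3.58.1 (R 4.3.3), with a variance trend, was run on log2(FPKM + 1) of the 13945 entries with a mean of at least 1 FPKM, with Benjamini-Hochberg adjustment over all of them. The added 1 FPKM shrinks the fold changes of low entries. The fit was tested on simulated data. Tables and figures were made with matplotlib 3.10.9, scipy 1.17.1, pandas 2.3.3 and numpy 2.4.6 in Python 3.11.15. Over all entries, samples of a group differed by 3.53 to 7.64 times counting noise (chi-square over its degrees of freedom), so none was taken as a repeated library. The highest values were those of siCtrl 1, at 7.64 against siCtrl 2 and 6.65 against siCtrl 3, while all other pairs lay between 3.53 and 4.05. Over the unannotated regions alone the values ran from 2.96 to 4.18.

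Named regions were the 5 highest means, the 6 largest rises and 6 largest falls among calls without overlap, up to 4 regions detected in 1 group alone, the 3 with the widest siCtrl ratio and the 3 smallest changes, with ANP32B. The members, lists and rules were chosen with earlier results of these data known. Alternatives were another pseudocount (0.1), no level filter, a mean of at least 2 FPKM, median-of-ratios scaling, limma-voom on the recovered fragments, a replicate block, siCtrl 1 as the only control (its spread is then assumed to be that of siANP32B) and each sample left out in turn.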

Additional observations from a re-analysis of the deposited data

How the results depend on the processing

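With limits on low values changed, a mean of at least 2 FPKM left 102 regions, of which 22 were called, 7 higher and 15 lower, and 22 of the 23 original calls still compared remained called. Without a level filter 507 regions were compared and 27 called, 18 of them shared with the 34. limma-voom called 49 regions, 21 higher and 28 lower, of which 30 were shared. With siCtrl 1 as the only control 17 regions were called, 8 higher and 9 lower, 14 of them shared. Leaving out 1 sample at a time gave 21 to 28 calls, 9 to 14 higher and 10 to 16 lower, beside 32.1 to 34.5% of all entries called. Beside 39.2% at first, the share called of all entries was 45.6% at 2 FPKM, 14.2% without a level filter, 43.3% with limma-voom and 22.3% with siCtrl 1 as the only control.

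Same-numbered samples of the 2 groups did not deviate together (correlations 0.021, -0.0063 and -0.0028), so the replicate numbers were not taken as pairs. The replicate block called 31 regions, 16 higher and 15 lower, 28 of them shared, beside 38.1% of all entries called. The regions it added include Novel00490 (limma adjusted p = 0.0221) and Novel00007 (0.0445). siCtrl 1 correlated best with its own number while siCtrl 2 and siCtrl 3 did not.

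The sign turned in a few results near 0. Median-of-ratios scaling gave log2 fold changes of 0.0054 for Novel00376 and 0.027 for Novel00230. With siCtrl 1 as the only control Novel00282 was at -0.24 and Novel00339 at -0.15. limma-voom gave -0.0348 for Novel00339 and -0.0048 for Novel00126, and a pseudocount of 0.1 gave -0.0253 for Novel00339. With single samples left out, log2 fold changes ran from -0.0039 to 0.0695 for Novel00378, from -0.25 to 0.44 for Novel00282, from -0.21 to 0.19 for Novel00339, from -0.13 to 0.10 for Novel00230 and from -0.11 to 0.13 for Novel00126. The difference in regions detected ran from -0.833 to 5.17 per sample, and was -0.667 at a level of at least 0.1 FPKM. Without the 5 highest regions the difference in summed level was -12.6 FPKM. The cause of these changes was not tested.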
